A study of Mus musculus with 11 samples.

Results

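Invariant natural killer T (NKT) thymocytes and the bone marrow precursors of innate lymphoid cells (ILCP) shared 432 intervals of accessible chromatin that no library of conventional CD4 single-positive (CD4SP) thymocytes or common lymphoid progenitors (CLP) contained. They were 0.605% of the 71400 intervals obtained when the ATAC-seq peaks of all 9 libraries were merged. The members were defined by measured peak calls alone: a peak in both NKT and both ILCP libraries and in none of the 2 CD4SP and 3 CLP libraries, with peaks merged from 1 bp of overlap. Their absence from CD4SP and CLP and their presence in NKT and ILCP are therefore the rule and not results. Most of them lay far from gene start sites, held Runx, TCF/LEF or GATA words at their centres, and ranked higher among the ILCP than among the NKT peaks. The intervals open in both libraries of a single type and in none of the other 7 libraries, 1401 for NKT and 2611 for ILCP, served for comparison.

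The labels give the strain as C57BL/6 for all cells, although the ILCP carried a reporter allele, with CD4SP and NKT cells from the thymus and CLP and ILCP from bone marrow. NKT cells were sorted with a CD1d tetramer loaded with αGalCer, CLP as lineage-negative IL-7Rα+ cells with intermediate cKit and Sca-1 and high Flt3, and ILCP as lineage-negative IL-7Rα+α4β7+ cells carrying green fluorescence from a reporter allele of Zbtb16. The ILCP gate thus uses the gene with which the comparison is most concerned, and that allele was not part of the gate of the other cell types. Peak numbers ran from 19343 in CLP replicate 1 to 41535 in CLP replicate 2, with 34701 and 38793 in NKT and 26328 and 25771 in ILCP. For sequencing depth the study's methods give 1 range for its libraries and no number for each list, so the lack of a peak says no more than that the caller listed none there, and in bulk samples fewer cells with an accessible site and weaker access in each cell cannot be told apart. Of the markers checked at their start sites, Cd3e and Cd4 had peaks in every NKT and CD4SP library and in no ILCP or CLP library, Zbtb16 had peaks in all NKT and ILCP libraries and also in CLP replicate 2, and Klrb1c had none in any library. Other markers did not follow their cell type: Tcf7 and Itgb7, the β7 chain of the integrin in the ILCP gate, had no start-site peak in either ILCP library, Il7r had none in ILCP replicate 2, the CLP markers Flt3 and Kit had peaks in both ILCP libraries, and Cd5 had peaks in all 3 CLP libraries. Of 7 markers of B, myeloid and erythroid cells, 0 to 2 had a start-site peak in a given library.

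NKT cells are T cells with a conserved receptor for lipids presented by CD1d, and ILCP give rise to innate lymphoid cells, which lack antigen receptors. Both express PLZF, the zinc finger factor encoded by Zbtb16, and their progeny acquire effector programmes before they meet a pathogen. Runx proteins bind DNA together with Cbfb and act throughout lymphoid development, TCF-1 and LEF-1 are HMG box factors of early T and innate lymphoid precursors, and GATA3 is required for both T cells and innate lymphoid cells.

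The sequences below are the central 200 bp of the 2 shared intervals of Zbtb16 and of 6 others among the 10 intervals whose lowest-ranking peak stood highest in its library. The windows of Me3, Stard3nl and Tmem117, also among the 10, are not printed. The printed sequences are read from the plus strand of GRCm38.p6 (mm10), and capitals mark words of 3 kinds on either strand. The core Runx word was TGTGGT, and matches to the other accepted form, TGCGGT, were counted with it. For TCF and LEF factors the word ATCAAAG was searched, and the other accepted form, which is TTCAAAG, was treated as equal to it. The GATA word was AGATAA, with the other accepted form, TGATAA, also counted. A match on the minus strand appears as its reverse complement. Of the 11 windows chosen in this way, the Zbtb16 +40.6 kb interval being both a Zbtb16 interval and one of the 10, 5 held a Runx word, 5 a TCF/LEF word, 4 a GATA word and 2, those of Me3 and Stard3nl, none of these.
Zbtb16 +40.6 kb, chr9:48795199-48795398: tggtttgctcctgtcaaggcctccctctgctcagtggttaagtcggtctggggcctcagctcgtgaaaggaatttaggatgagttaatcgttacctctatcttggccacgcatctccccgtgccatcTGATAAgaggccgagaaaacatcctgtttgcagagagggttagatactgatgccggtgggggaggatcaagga
Zbtb16 +16.2 kb, chr9:48819653-48819852: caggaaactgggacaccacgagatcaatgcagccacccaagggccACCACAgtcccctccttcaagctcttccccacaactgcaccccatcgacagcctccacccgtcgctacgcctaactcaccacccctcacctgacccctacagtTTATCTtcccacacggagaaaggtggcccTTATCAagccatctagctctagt
Il17a +9.66 kb, chr1:20740467-20740666: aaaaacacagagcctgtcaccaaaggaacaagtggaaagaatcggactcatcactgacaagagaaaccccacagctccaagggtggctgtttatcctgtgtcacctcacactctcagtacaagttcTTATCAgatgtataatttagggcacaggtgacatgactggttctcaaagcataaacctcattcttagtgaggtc
Nudt12 far upstream, chr17:59774153-59774352: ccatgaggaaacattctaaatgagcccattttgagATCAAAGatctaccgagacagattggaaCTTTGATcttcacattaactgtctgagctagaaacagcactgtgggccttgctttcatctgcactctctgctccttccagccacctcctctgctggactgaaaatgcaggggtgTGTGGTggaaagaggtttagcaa
Orc5 upstream, chr5:22587654-22587853: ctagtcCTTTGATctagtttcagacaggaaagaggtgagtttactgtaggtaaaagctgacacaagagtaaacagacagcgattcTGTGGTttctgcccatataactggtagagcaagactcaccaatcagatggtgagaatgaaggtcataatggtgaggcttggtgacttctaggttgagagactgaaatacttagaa
Gorab downstream, chr1:163374718-163374917: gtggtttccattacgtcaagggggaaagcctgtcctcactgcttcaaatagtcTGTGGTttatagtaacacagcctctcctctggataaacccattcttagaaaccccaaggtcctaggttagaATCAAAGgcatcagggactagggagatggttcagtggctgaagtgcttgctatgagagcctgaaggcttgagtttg
Tiam2 upstream, chr17:3260924-3261123: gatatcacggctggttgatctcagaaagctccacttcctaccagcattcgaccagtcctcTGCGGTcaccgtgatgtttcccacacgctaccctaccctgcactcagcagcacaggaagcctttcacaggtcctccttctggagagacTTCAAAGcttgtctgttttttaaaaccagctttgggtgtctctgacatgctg
Cemip2 downstream, chr19:21865628-21865827: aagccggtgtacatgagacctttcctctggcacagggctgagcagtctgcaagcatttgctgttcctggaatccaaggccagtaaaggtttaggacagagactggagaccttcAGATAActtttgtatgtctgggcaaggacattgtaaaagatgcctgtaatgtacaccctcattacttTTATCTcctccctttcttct
The Nudt12, Orc5, Gorab and Tiam2 windows each held both a Runx and a TCF/LEF word, and the Cemip2 and Il17a windows held GATA words alone. The 2 intervals of Zbtb16 differed, the one at +16.2 kb holding a Runx word and 2 GATA words and the one at +40.6 kb a single GATA word and no Runx word. A word in such a window describes the sequence and does not show that a factor was bound there. Only the central 200 bp were searched here, and the lack of a word in them does not show that no factor was bound in the interval.

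Shared intervals were distal. By the place of its midpoint, 1.39% of them (6 of 432, Wilson 95% interval 0.638 to 2.997) lay within 1 kb of the start site of a protein-coding gene, against 19.0% of all intervals, 2.78% of NKT-only and 2.30% of ILCP-only intervals. Introns held 52.3% (226 intervals), exons 3.47% (15) and intergenic sequence 42.8% (185). The median distance to the nearest start site was 32290 bp, against 17036 bp over all intervals, 25838 bp for NKT-only and 38383 bp for ILCP-only intervals. The classes defined by 1 cell type were thus nearly as depleted of start sites as the shared class. These and all later intervals of shares cover counting error only, and since neighbouring intervals come from the same libraries and are not replicates, no significance test was made over them.

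**Figure D1:**
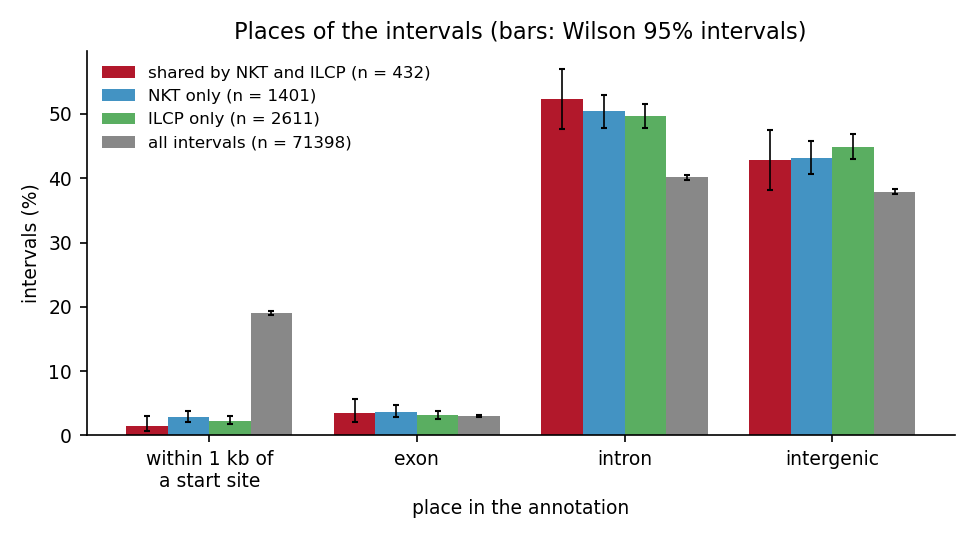
Share of intervals (%) within 1 kb of a protein-coding start site, in exons, in introns and in intergenic sequence, for 432 shared, 1401 NKT-only, 2611 ILCP-only and 71398 nuclear intervals, with Wilson 95% intervals as error bars. The 3 restricted classes have 1.39% to 2.78% of their intervals at start sites, against 19.0% of all intervals.

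The 6 shared intervals at start sites, named here after their values were seen, belonged to Prkacb, a catalytic subunit of protein kinase A, Olfm3, Cntn1, a neuronal adhesion molecule, P3h4, the olfactory receptor gene Olfr312 and Tom1l1. The Prkacb interval had the highest ranks of the 6, from 17.0% in ILCP replicate 1 to 33.2% in ILCP replicate 2, where the rank of a peak is its place in its own library, from 0% for the highest score to 100% for the lowest. That interval lay 524 bp upstream of an annotated start site. The others had a worst rank between 63.1% and 97.8%.

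The shared intervals were of moderate width and GC content and were scattered over the genome. Their median width was 1007 bp and their median GC content 44.3%, from 32.5% to 58.5%. The GC content was 47.0% over all intervals and 45.8% over those more than 1 kb from a start site, so that part of the gap to all intervals went with the lack of start sites. NKT-only intervals had a median of 45.3% and ILCP-only intervals one of 44.4%. Repeats covered a median of 15.6% of a shared interval and 14.2% of any interval. Only 4 shared intervals had another within 10 kb, and the median distance to the next was 1630580 bp.

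Runx words were the most frequent of the 18 motifs searched. A Runx word on either strand occurred in the central 200 bp of 51.2% of shared intervals (221 of 432, 46.5 to 55.8), of 29.9% of NKT-only, 58.9% of ILCP-only and 28.6% of all intervals. The share was 22.6 percentage points above that of all intervals (95% interval of the difference 17.9 to 27.3) and 21.3 points above NKT-only intervals (15.9 to 26.5), but 7.75 points below ILCP-only intervals (2.69 to 12.8 below). The shared class therefore stood nearer to the ILCP-only than to the NKT-only class. Over whole intervals, which were wider in the shared class, the order of these 2 turned, with 83.1% of shared and 81.8% of ILCP-only intervals. A single Runx word was present in 170 shared intervals, 2 in 45 and 3 or more in 6. Promoters of RefSeq genes were taken from 250 bases before to 50 after the start. Of these, 15.0% held a Runx word in their central 200 bases.

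TCF/LEF words set the shared class above both others. They were found in 32.2% of shared intervals (27.9 to 36.7), 20.8% of NKT-only, 25.3% of ILCP-only and 10.3% of all intervals. The difference was 11.3 points from NKT-only (6.56 to 16.3), 6.86 points from ILCP-only (2.30 to 11.7) and 21.9 points from all intervals (17.7 to 26.5). GATA words were found in 31.3% (27.1 to 35.8) of shared intervals, 24.3% of NKT-only, 31.0% of ILCP-only and 15.8% of all intervals. The gap to all intervals was 15.5 points, and 11.6 points with all intervals reweighted to the GC of the shared class. For GATA the shared class exceeded NKT-only intervals by 6.91 points (2.12 to 11.9), or 5.02 points after such reweighting. Its difference from ILCP-only intervals was 0.266 points with an interval from -4.29 to 5.11. Over whole intervals, which were wider in the shared class, GATA words were in 77.8% of shared and 70.1% of ILCP-only intervals. The reweighted gaps to all intervals were 19.8 points for Runx and 19.7 points for TCF/LEF. In the promoter windows searched for Runx the shares were 5.73% for TCF/LEF and 13.2% for GATA.

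**Figure D2:**
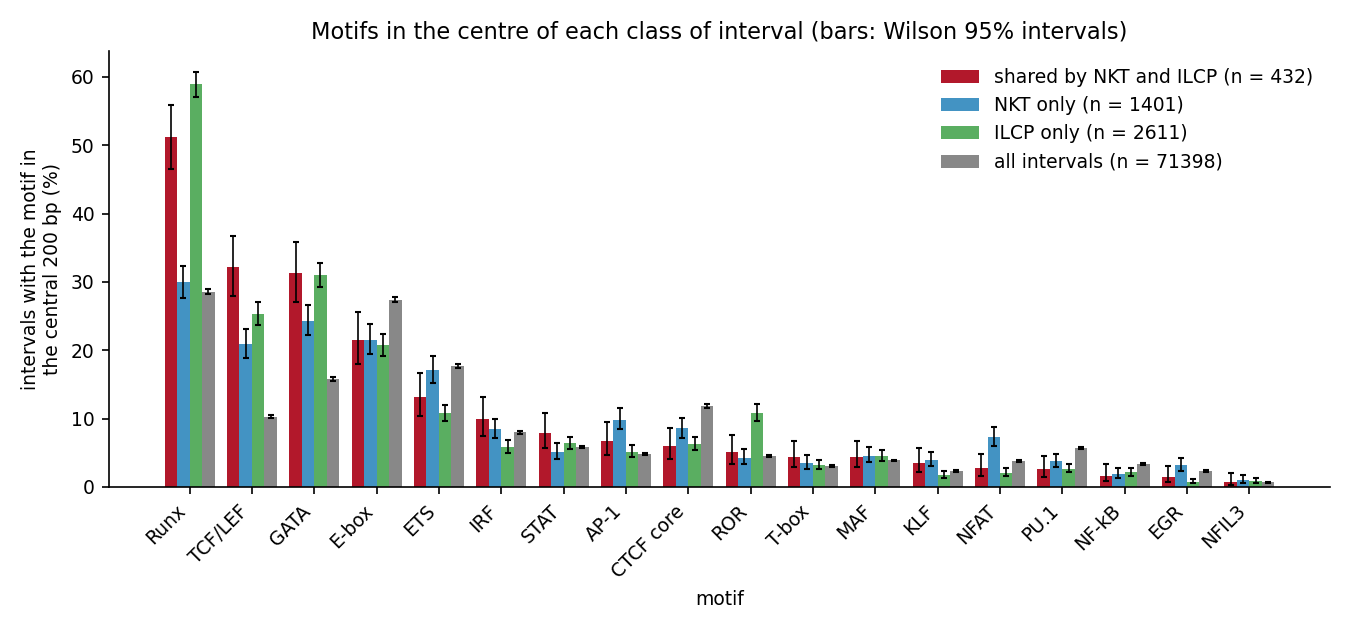
Share of intervals (%) with each of 18 motifs in the central 200 bp, by class, with Wilson 95% intervals as error bars. Runx words reach 51.2% of shared and 58.9% of ILCP-only intervals, TCF/LEF words are most frequent in shared intervals at 32.2%, and ROR words in ILCP-only intervals at 10.8%.

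At least 1 of these 3 words was present in 78.2% of shared intervals (338 of 432), 81.2% of ILCP-only, 58.8% of NKT-only and 44.9% of all intervals. Runx and TCF/LEF words occurred together in 70 shared intervals, or 16.2%, where their separate shares would give 16.5% if they were independent. Runx and GATA words also shared 70 intervals, 16.2% against 16.0% by their separate shares. TCF/LEF and GATA words met in 37 intervals, 8.56% (6.28 to 11.6) against 10.1%. Few words overlapped each other: of 279 Runx words in these windows, 6 overlapped a TCF/LEF word and 4 a GATA word.

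The words were densest at the centre of the shared intervals. Runx words numbered 3.87 per kb within 50 bp of the centre and 1.06 per kb at 450 to 500 bp from it, and TCF/LEF words 2.41 and 0.463 per kb. GATA words fell less steeply, from 2.13 to 0.972 per kb. In ILCP-only intervals Runx words were denser still at the centre, at 4.78 per kb, whereas NKT-only intervals had 1.85 per kb and all intervals 1.95 per kb. Over all intervals GATA words showed no central rise, with 0.906 per kb at the centre and 1.07 per kb at 450 to 500 bp.

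**Figure D3:**
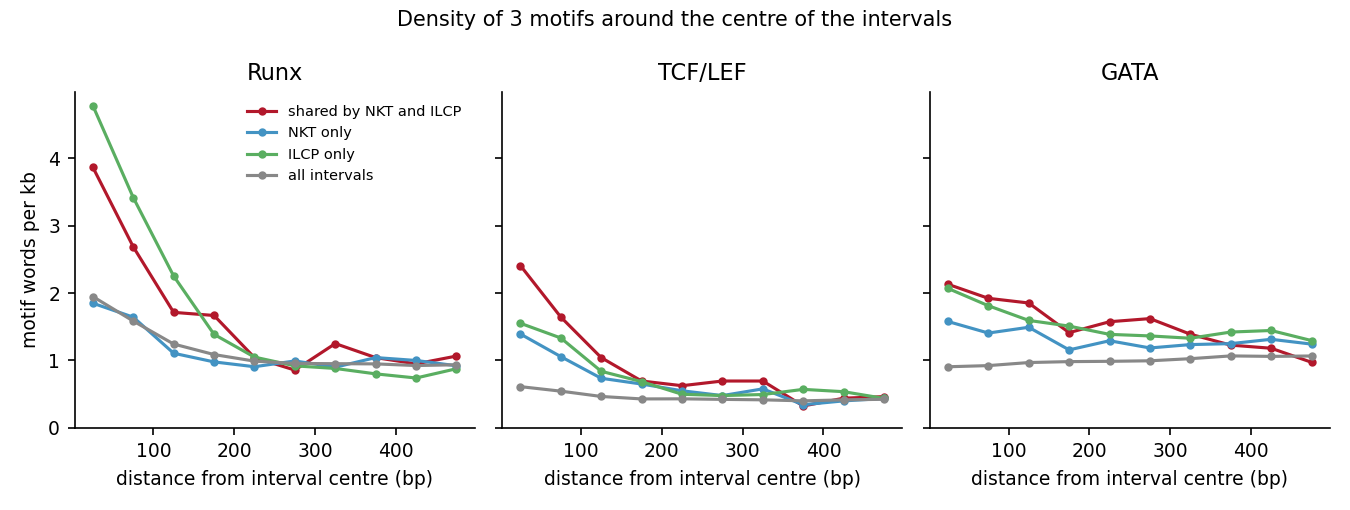
Motif words per kb (vertical axes) against distance from the interval centre in bp, in bins of 50 bp, for Runx, TCF/LEF and GATA in the shared, NKT-only, ILCP-only and all intervals. In shared intervals the density of Runx words falls from 3.87 to 1.06 per kb and that of TCF/LEF words from 2.41 to 0.463 per kb.

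ROR, NFAT and EGR words were each most frequent in the intervals of a single cell type. ROR words (TAGGTCA or TGGGTCA) were in 5.09% of shared, 4.28% of NKT-only and 4.52% of all intervals but in 10.8% of ILCP-only intervals. NFAT words (TGGAAAA), read by factors downstream of the T cell receptor, were in 2.78% of shared and 2.07% of ILCP-only intervals. They were in 7.28% of NKT-only and 3.80% of all intervals. EGR words (GCGTGGG) went the same way, with 1.39% of shared, 0.766% of ILCP-only, 3.14% of NKT-only and 2.28% of all intervals. For NFAT and EGR, found in only 12 and 6 shared intervals, the shared class thus stood nearer to the ILCP-only than to the NKT-only class. The Wilson intervals of shared and NKT-only intervals did not overlap for NFAT but did overlap for EGR. AP-1 words (TGACTCA) were in 6.71% of shared, 9.85% of NKT-only, 5.17% of ILCP-only and 4.78% of all intervals. ETS words (AGGAAGT or CGGAAGT) and CTCF core words (AGGGGGC or AGGTGGC), at 13.2% and 6.02%, were less frequent than over all intervals, at 17.6% and 11.8%. The T-box word GGTGTGA was in 4.40% of shared intervals and 3.01% of all intervals, and the NFIL3 words (TTATGTAA or TTACGTAA) in 0.694% and 0.646%. E-box words (CAGCTG or CAGGTG) at 21.5% and PU.1 words (GAGGAAGT, each of which contains an ETS word) at 2.55% were also less frequent than over all intervals, at 27.4% and 5.68%. The remaining motifs, with the share over all intervals in parentheses, were IRF words (GAAANNGAA) at 9.95% (7.96%), STAT words (TTCNNNGAA) at 7.87% (5.81%), MAF words (TGCTGAC) at 4.40% (3.86%), KLF words (GGGTGTGG) at 3.47% (2.34%) and NF-kB words (GGGNNTTCC) at 1.62% (3.34%).

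In all 4 libraries the shared intervals tended to be moderate peaks, and they ranked higher in ILCP than in NKT cells. The median rank was 63.3% and 65.2% in NKT replicates 1 and 2 and 44.7% and 44.2% in ILCP replicates 1 and 2. Both ILCP ranks were above both NKT ranks at 239 intervals, both NKT ranks were above both ILCP ranks at 59, and the ranks of the cell types overlapped at 134. In each cell type the shared intervals ranked above those restricted to that type, whose medians were 73.1% and 74.3% in NKT and 57.4% and 57.3% in ILCP. Only 54 shared intervals were in the upper 50% of all 4 libraries and 6 in the upper 25%. Ranks depend on how many peaks a list holds, and the ILCP lists are the shorter ones.

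**Figure D4:**
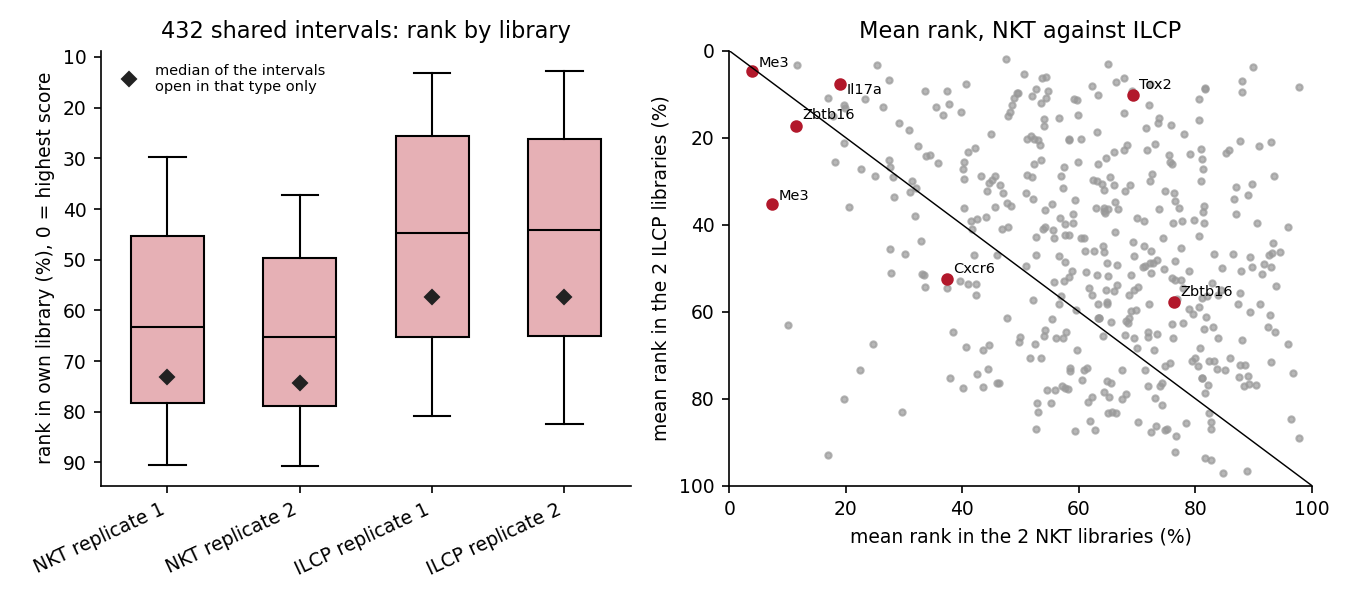
Left, rank of the 432 shared intervals within each NKT and ILCP library (0% = highest score): line, median; box, quartiles; whiskers, 10th and 90th percentiles; diamonds, median of the intervals open in that cell type only. Right, mean rank over the 2 NKT libraries against that over the 2 ILCP libraries for each shared interval, with the intervals of 5 genes in red and a line of equal rank; the medians are 63.3% and 65.2% in NKT and 44.7% and 44.2% in ILCP.

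The order of the intervals was kept better within a cell type than between them. Across the 432 intervals Spearman's rho was 0.827 between the ILCP replicates and 0.647 between the NKT replicates, but 0.213 to 0.261 between an NKT and an ILCP library. These are descriptions over intervals chosen for peaks in all 4 libraries, and the peaks of a library share its depth. Motif shares of the higher and lower ranks had overlapping Wilson intervals. Runx words were in 50.9% of the 216 intervals with the higher mean rank and in 51.4% of the 216 with the lower, TCF/LEF words in 33.3% and 31.0%, and GATA words in 33.8% and 28.7%.

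The interval with the best worst rank lay in an intron of Me3, a mitochondrial malic enzyme, at chr7:89711547-89713670. Its ranks were 2.003% and 5.87% in NKT and 4.68% and 4.76% in ILCP, so the cell types overlapped. The second, at chr13:19355780-19358586, was assigned to Stard3nl by the nearest protein-coding start site but also lay 3024 bp from Tcrg-C4, a constant segment of the T cell receptor gamma locus. It ranked at 8.87% and 14.3% in NKT and at 2.70% and 3.64% in ILCP, higher in both ILCP libraries than in either NKT library. It was the 1 shared interval within 20 kb of an antigen receptor gene segment.

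The third was an interval of Zbtb16 itself, in an intron 40.6 kb downstream of the start site, at chr9:48794564-48796034. It ranked at 10.3% and 12.7% in NKT and at 17.4% and 17.0% in ILCP, with both NKT libraries above both ILCP libraries. The other Zbtb16 interval, at chr9:48819263-48820243 and 16.2 kb downstream, ranked at 87.1% and 65.7% in NKT and at 50.9% and 64.8% in ILCP. It was 306th in the order in which the first was 3rd. Of the 16 intervals assigned to Zbtb16, 3 were open in NKT alone and 1 in ILCP alone.

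The other intervals among the best 10 were assigned to Nudt12, a nudix hydrolase, Cemip2, a cell surface protein of hyaluronan turnover, Orc5, a subunit of the origin recognition complex, Il17a, the cytokine IL-17A, Tiam2, an activator of Rac, Gorab, a golgin, and Tmem117. The Il17a interval, at chr1:20740036-20741097 and 9.66 kb downstream of the start site, ranked at 12.9% and 25.1% in NKT and at 6.61% and 8.64% in ILCP. There was no peak at the Il17a start site in any of the 9 libraries. The assignment by distance is weak for Nudt12, whose start site was 761 kb away.

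The 432 intervals were assigned to 404 protein-coding genes, 1.84% of the 21951 annotated. A single interval was assigned to 380 of them, 2 to 20 genes and 3 to 4 genes. Those with 3 included Cemip2, Ptprj, the receptor phosphatase CD148, and Arl14ep. The next 6 by the best worst rank, each with 2, were Me3, Zbtb16, Gpr151, an orphan receptor, Zfp516, a zinc finger protein, Sh2d4a, an SH2 adaptor, and Bnc2, a zinc finger protein. At 90 intervals (20.8%) the nearest start site was over 100 kb away. A further count was of intervals that overlapped the body of another protein-coding gene but not that of the assigned gene, and it gave 46.

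Of 182 genes in 9 lists, 8 of lymphoid function and 1 of B cell, progenitor and myeloid markers, 14 were nearest to a shared interval, or 7.69% against 1.84% of all protein-coding genes. The same lists contributed 29 genes to the NKT-only class (15.9%, against 5.39% of all genes) and 27 to the ILCP-only class (14.8%, against 8.84%). The lists were made with earlier results of these data known, so these counts are a description. When an interval had to fall within 20 kb of the gene body, 9 list genes were counted (4.95%), against 1.75% of all genes.

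Among 32 lineage factors, 4 (12.5%, against 1.84% of all genes) were nearest to a shared interval, while 13 were nearest to an NKT-only and 8 to an ILCP-only interval. The 4 included Zbtb16, Nfil3, a factor needed early in innate lymphoid development, and Tox2, an HMG box factor. The Tox2 interval was intronic and ranked at 77.2% and 61.5% in NKT and at 10.2% and 10.3% in ILCP, far higher in both ILCP libraries. The Nfil3 interval, 17.7 kb upstream, ranked at 54.6% and 69.3% in NKT and at 99.1% and 71.0% in ILCP.

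The lists of cytokine receptors, adhesion and costimulation supplied 7 of the 14, beside the 1.84% of all protein-coding genes. They were Il17rb, a chain of the IL-25 receptor, and Ifngr1, a chain of the interferon gamma receptor (2 of 22 cytokine receptors), Itga4, Itga1, Cxcr4 and Cxcr6 (4 of 25 genes of adhesion and migration), and Cd226, the activating receptor DNAM-1 (1 of 17 genes of costimulation and inhibition). From the same 3 lists the NKT-only class drew 1, 6 and 3 genes and the ILCP-only class 2, 4 and 3, from larger numbers of intervals. Itga4 encodes the α4 chain of the α4β7 integrin by which ILCP were sorted, and its intronic interval ranked at 76.3% and 75.8% in NKT and at 55.1% and 70.6% in ILCP. The interval assigned to Cxcr6, the receptor for CXCL16, lay 8.08 kb downstream of its start site inside the gene Fyco1, and ranked at 38.6% and 36.0% in NKT and at 47.2% and 57.8% in ILCP. It was higher in both NKT libraries, the reverse of Tox2. The interval of Cxcr4, the receptor for CXCL12, was 56.5 kb from the start site and had ranks of 48.5% to 61.5% in the 4 libraries. The Il17rb interval ranked at 84.9% and 87.9% in NKT and at 49.1% and 44.6% in ILCP. Of the 2 intervals assigned to Cd226, that at 195 kb lay inside Dok6, and it ranked at 42.3% and 61.5% in NKT and at 11.5% and 9.42% in ILCP. The nearer one, at 24.7 kb, ranked at 44.9% and 77.0% in NKT and at 44.7% and 41.6% in ILCP. The interval of Itga1, a collagen-binding integrin chain, was 70.0 kb upstream, and that of Ifngr1 was 87.4 kb upstream.

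In the remaining lists the counts were 0 or 1, too few to be set against the 1.84% of all protein-coding genes. Il17a was 1 of 21 effector molecules, Klra1, the NK cell receptor Ly49A, 1 of 18 NK receptors, and Meis1, a homeobox factor of stem cells, 1 of 20 markers of B, progenitor and myeloid cells. The Meis1 interval lay 237 kb from the start site. None of 10 genes of the SLAM family and none of 17 genes of the T cell receptor complex and its signalling was nearest to a shared interval, and at a share of 1.84% lists of this size would hold fewer than 1 gene.

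The genes nearest to shared intervals were mostly open at their start sites in the control cells as well. At a start site with a shared interval, the rule had fixed the calls of that interval, though not every start-site call of the gene. Calls at Olfm3, Cntn1 and Olfr312 followed the rule, whereas Prkacb had a start-site peak in every library. P3h4 was also open at a start site in CD4SP and CLP libraries, and Tom1l1 only in CLP libraries. The 6 genes with such an interval were left out. Of the other 398, 67.6% and 70.9% had a peak within 500 bp of a start site in NKT, 67.8% and 67.1% in ILCP, 62.8% and 64.3% in CD4SP and 62.6%, 81.4% and 80.7% in CLP. Over all genes the shares were 48.3% and 53.5%, 40.9% and 39.7%, 48.0% and 52.3%, and 37.2%, 55.3% and 54.6%. A start-site peak was present in all 9 libraries for 196 of the 398 (49.2%, 44.4 to 54.1) and in none for 67 (16.8%). Over all genes these shares were 30.7% and 38.4%, for genes nearest to NKT-only intervals 41.9% and 18.03%, and for those nearest to ILCP-only intervals 45.4% and 19.96%.

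The largest differences in the neighbourhood of shared intervals were in CD4SP. Within 20 kb of a shared interval lay 958 intervals outside the class. Of these, 37.2% and 39.1% were open in CD4SP, against 45.7% and 52.0% of all intervals outside the class, and 24.4%, 54.4% and 52.6% in CLP, against 26.1%, 57.6% and 55.6%. These shares were not tested, and the differences in CLP were small. In ILCP 38.5% and 38.8% were open, against 35.1% and 34.2%. The NKT replicates did not move together, with 51.7% against 46.1% in replicate 1 and 479 of 958 against 52.5% in replicate 2.

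To see how far a choice on 1 replicate carries over to the other libraries, intervals were chosen on replicate 1 of each cell type alone. Of the 1513 intervals with a peak in NKT and ILCP and none in CD4SP and CLP, 80.5% were open in NKT replicate 2 (78.4 to 82.4) against 52.8% of all intervals, and 76.0% in ILCP replicate 2 (73.8 to 78.1) against 34.6%. In CD4SP replicate 2, 26.1% were open (24.0 to 28.4) against 51.7%. In CLP replicates 2 and 3 the shares were 41.2% (38.8 to 43.7) and 38.6% (36.2 to 41.1), against 57.3% and 55.2%. All intervals include those without a peak in the choosing libraries, and ordinary agreement between replicates was not separated from these gaps. The whole rule was met in the held-out libraries by 432 of the 1513 (28.6%). These are the 432 members themselves, so that share is no separate evidence. With this choice the absence of a peak carried over less well in CLP than in CD4SP. CLP replicate 1, which took part in that choice, had the fewest peaks of any library. When replicates 2 made the choice, 792 intervals were found, and 6.57% of them were open in CLP replicate 3 (55.2% of all intervals), 0.253% in CLP replicate 1 (25.9%) and 10.9% in CD4SP replicate 1 (45.4%), so that the order of CLP and CD4SP turned. The held-out NKT and ILCP libraries were then open at 76.1% and 82.8%, against 46.4% and 35.5% of all intervals. Of the 792, 54.5% met the whole rule, and these are again the 432 members.

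**Figure D5:**
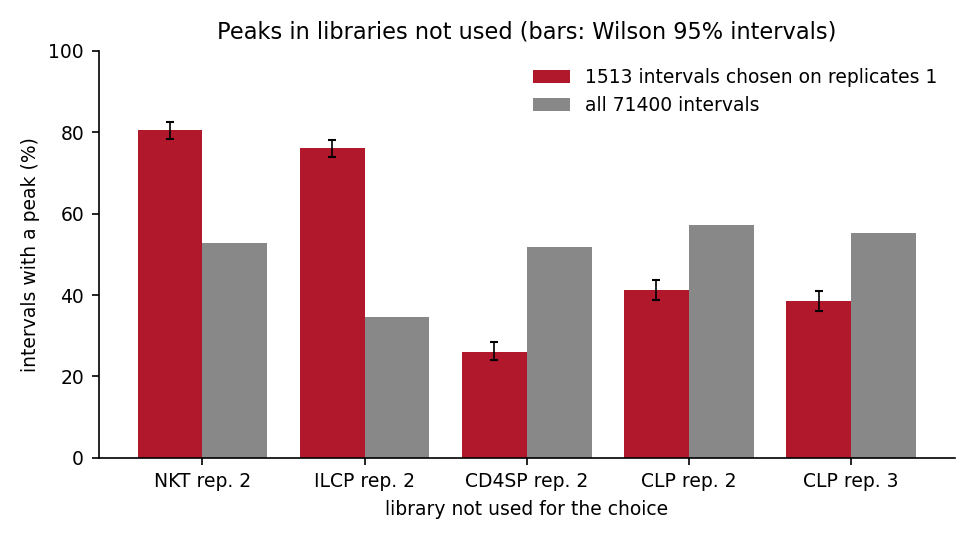
Share of intervals (%) with a peak in each of 5 libraries not used for the choice, for the 1513 intervals chosen on replicate 1 of each cell type (red, Wilson 95% intervals as error bars) and for all 71400 intervals (grey). The chosen intervals exceed all intervals in NKT and ILCP and fall below them in CD4SP and CLP, where 38.6% to 41.2% are still open.

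Many intervals lay close to the edge of the rule. Of 14092 intervals open in all 4 NKT and ILCP libraries, 432 had no control peak, 202 had 1, and 9464 had all 5. Of the 202 just outside, 95 had their peak in CD4SP replicate 2, 52 in CD4SP replicate 1, 34 in CLP replicate 2, 21 in CLP replicate 3 and 0 in CLP replicate 1. Those control peaks were weak, with a median rank of 84.5%, and 161 of them scored under 200, where the lowest score listed is 120. On the other side, 55 shared intervals scored under 130 in 1 or more of their 4 libraries, and 407 intervals without control peaks missed a single NKT or ILCP library.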

How the data were processed

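ATAC-seq was available for 2 CD4SP, 2 NKT, 3 CLP and 2 ILCP libraries, grouped by their labels. The authors aligned reads to mm10 with Bowtie, with a small number of mismatches allowed, and called peaks in each library with MACS, and the submitters' processing notes also name Picard and HOMER. The deposited lists, 1 for each library, hold the coordinates of the peaks with a score that is not further defined. Versions, the settings of the peak caller, duplicate removal and any shift for the transposase are not given in the sources used here, and these choices decide which weak peaks are called. A Runx1 ChIP-seq library and the matching input were not analysed here.

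Peaks were merged with Python 3.11.15, numpy 2.4.6 and pandas 2.3.3. Scores were used only as ranks within a library. Sequence came from GRCm38.p6, read with pysam 0.24.0, and genes from GENCODE M21 (protein-coding). The 2 mitochondrial intervals were left out of sequence and class statistics. Wilson intervals came from scipy 1.17.1, differences of shares from the Newcombe method, and plots from matplotlib 3.10.9. The assignment of classes and the search for words were checked on simulated peaks and sequences. The members and gene lists were chosen with earlier results of these data known. Named genes were Zbtb16, every list gene nearest to a member, the 10 genes with the most members and the genes of the 10 members with the best worst rank. Alternatives were equal numbers of peaks, the higher-scoring 50%, other overlaps, replicate rules and motif windows, and each library left out in turn. Some genes named by this rule are not reported here.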

Additional observations from a re-analysis of the deposited data

How the results depend on the processing

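The depth is stated as a range and not for each library, so the limits are those of peak calling. No paired analysis was possible because the results come from no test. With each library left out in turn, the number of shared intervals ran from 432 to 555 and the median of their mean rank from 54.5% to 61.6% (55.2% with all libraries; over 60% without either ILCP replicate).

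With each list limited to its best 19343 peaks there were 261 shared intervals and 248 nearest genes, 96.6% lay over 1 kb from a start site, the median GC was 44.7%, Runx words were in 45.6% and TCF/LEF words in 27.6%. The median mean rank was then 36.2%, lower by construction since ranks were those of the full lists. With the higher-scoring 50% of peaks there were 195 intervals, 187 nearest genes and 6 list genes, 96.4% lay over 1 kb away, and the median mean rank was 29.7%, lower by construction. With a peak in any replicate of NKT and ILCP there were 1002 intervals, 897 nearest genes and 29 list genes, with a GC of 44.6% and a median mean rank of 67.4%. Over whole intervals Runx words were in 83.1%, TCF/LEF words in 59.7% and GATA words in 77.8% of shared intervals, and in 81.8%, 48.9% and 70.1% of ILCP-only intervals, so that the shared class was then no longer below the ILCP-only class for Runx. With genes extended by 20 kb, 9 list genes were counted. Choosing on replicates 2 gave 64.8% open in both held-out NKT and ILCP libraries, against 61.7% on replicates 1. Over all alternatives, those above and GC-matched weighting of the comparison classes included, 136 values stayed within their interval or within 1.5 times the count and 24 did not.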
